A study of Mus musculus with 219 samples.

Results

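This section describes 10 amino acid transporter genes in mouse embryos fertilised by intracytoplasmic sperm injection (ICSI), namely Slc7a8, Slc1a1, Slc1a4, Slc1a5, Slc3a2, Slc7a1, Slc7a5, Slc7a6, Slc7a7 and Slc7a9, out of 32285 genes in each count table. All 10 symbols were found in both tables. The set was drawn up because Slc7a8 and Slc1a1 were the 2 of these 10 that fell most in twin blastocysts, with and without depth covariates. The values of twin against intact blastocysts are therefore a description, and the calls counted for that contrast, under any setting, support nothing about the genes. Of the 10 genes, 9 passed the filter on low counts in blastocysts, and Slc7a9 did not.

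B6C3F1 oocytes had received one CD1 sperm head, placed opposite the meiotic spindle (contralateral, Co), beside it (isolateral, Is) or midway (equatorial, Eq), and all embryos were of the B6C3F1xCD1 genotype. There were 55 pairs of sister blastomeres from 2-cell embryos (21 Co, 21 Is and 13 Eq), 19 pairs of twin blastocysts, each grown from a single blastomere after bisection (6 Co, 7 Is and 6 Eq), and 31 intact blastocysts, which had not been bisected (11 Co, 8 Is and 12 Eq). All shared ICSI and culture in KSOM medium supplemented with amino acids, and no naturally fertilised embryo is compared here. The counts of both sisters or both twins were added, so the embryo is the unit throughout.

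The groups differed in more than bisection. Twins were cultured alone in the wells of 96-well plates, whereas the labels do not say how intact embryos were kept. All blastocyst libraries sat on one plate, twins and intact embryos in separate blocks of wells, so that well position, bisection and culture cannot be told apart. Total counts also differed. The 31 intact embryos held 234099 to 1254428 counts and the 19 twin embryos, with 2 libraries added, 1676976 to 3095134, so the totals did not overlap. Per library the medians were 705837 for intact embryos and 1093478 for twins. Oocyte markers were at or near 0 in the blastocysts, with summed levels (TPM, counts scaled to gene length and library) of 0 to 36.1 in intact and 0 to 19.3 in twin embryos against 3876 to 5582 in 2-cell embryos. In a whole embryo, fewer cells of a type and less RNA per cell cannot be told apart.

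Cells import amino acids through families of carriers with overlapping substrates. Slc3a2 is the 4F2 heavy chain (CD98), a single-pass glycoprotein that brings light chains to the cell surface. Its light chains among the members are Slc7a5 (LAT1), Slc7a8 (LAT2), Slc7a6 (y+LAT2) and Slc7a7 (y+LAT1). Slc7a5 and Slc7a8 exchange large neutral amino acids such as leucine. Slc7a6 and Slc7a7 exchange cationic for neutral amino acids together with sodium. Slc7a9 pairs with another heavy chain. Slc7a1 (CAT1) carries arginine and lysine without a partner, and Slc1a1 (EAAC1) takes up glutamate and aspartate with sodium. Slc1a4 (ASCT1) and Slc1a5 (ASCT2) exchange small neutral amino acids such as alanine and serine. Import of leucine and arginine is known as one requirement for trophectoderm outgrowth, and amino acid supply is read inside the cell by the mTORC1 kinase complex.

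The promoters of 4 of the genes are shown, those of Slc7a8 and Slc1a1 because they lead the pattern, and those of Slc7a1 and Slc1a4 because they hold the one motif found among these 4 windows. They are RefSeq sequences of build GRCm38.p6, from 250 bases before to 50 after the transcription start, written 5′ to 3′ on the strand of the gene. Capitals mark GATGNAA, on either strand, the core of the amino acid response element bound by Atf4.
Slc7a8, chr14:54781837-54782136, minus strand: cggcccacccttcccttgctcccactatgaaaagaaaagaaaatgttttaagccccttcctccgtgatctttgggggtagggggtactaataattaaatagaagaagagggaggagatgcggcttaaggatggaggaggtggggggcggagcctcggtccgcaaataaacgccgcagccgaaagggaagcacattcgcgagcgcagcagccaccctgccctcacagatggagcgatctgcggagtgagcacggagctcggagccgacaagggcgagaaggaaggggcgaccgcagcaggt
Slc1a1, chr19:28834885-28835184, plus strand: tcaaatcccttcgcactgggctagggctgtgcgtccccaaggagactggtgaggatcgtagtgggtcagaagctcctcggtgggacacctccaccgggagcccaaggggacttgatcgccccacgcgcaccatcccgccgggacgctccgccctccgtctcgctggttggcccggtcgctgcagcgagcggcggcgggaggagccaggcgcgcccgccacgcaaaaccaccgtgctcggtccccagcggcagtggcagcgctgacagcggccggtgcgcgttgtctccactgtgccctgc
Slc7a1, chr5:148399855-148400154, minus strand: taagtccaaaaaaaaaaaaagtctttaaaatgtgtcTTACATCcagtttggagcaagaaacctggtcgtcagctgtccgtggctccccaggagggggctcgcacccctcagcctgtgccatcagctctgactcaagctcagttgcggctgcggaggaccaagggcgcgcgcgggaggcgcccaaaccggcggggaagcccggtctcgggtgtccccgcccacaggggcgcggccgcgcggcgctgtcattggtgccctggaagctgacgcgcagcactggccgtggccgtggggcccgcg
Slc1a4, chr11:20332664-20332963, minus strand: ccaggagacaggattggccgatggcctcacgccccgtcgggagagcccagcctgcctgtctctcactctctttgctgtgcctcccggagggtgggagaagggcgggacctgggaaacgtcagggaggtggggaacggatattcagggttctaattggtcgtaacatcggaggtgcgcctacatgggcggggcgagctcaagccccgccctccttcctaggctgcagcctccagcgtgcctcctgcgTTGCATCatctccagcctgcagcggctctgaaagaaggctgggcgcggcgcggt
Promoter sequences were at hand for 8 of the 10 genes, in 15 windows. GATGNAA was present in at least one window of 3 of these genes (Slc7a1, Slc1a4 and Slc7a7), and in 12.3% of all 32851 promoter windows. Genes are counted here over all their windows, some of which overlap, but the percentages are per window. The counts and percentages are therefore not comparable. GGAATG, bound by Tead factors, occurred in windows of Slc7a7 alone (14.7% of all windows), AGATAA, bound by Gata factors, in those of Slc7a7 and Slc7a9 (11.2%), and CACGTG, an E-box of Tfe3 and Tfeb, in none (7.15%). The windows of Slc7a8 and Slc1a1 held none of the 4 motifs on either strand. No motif overlapped another in the windows printed, and binding was not measured.

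Slc7a8 set twin and intact blastocysts furthest apart. Its lowest, median and highest values were 135, 240 and 417 CPM (counts scaled to the library total) in the 31 intact embryos, and 20.3, 36.8 and 88.9 CPM in the 19 twin embryos. All 19 twin embryos lay below all 31 intact ones. Each twin value adds 2 blastocysts, and partners differed by up to 2.97 on the log2(CPM + 1) scale. Single twin blastocysts were not compared in this way. The fitted log2 fold change, twin minus intact, was -2.57 ± 0.16 (SE), and the ratio of mean CPM was 0.178. Of all 10689 genes tested, 15 (0.14%) had every twin embryo below every intact one, which is the pattern that Slc7a8 was picked for.

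Slc1a1, the glutamate and aspartate carrier, came next. It ranged from 127.6 through a median of 407 to 632 CPM in intact embryos, and from 70.9 through 119.1 to 150 CPM in twins, with a log2 fold change of -1.94 ± 0.13 (SE). Among the intact embryos 30 of 31 exceeded the highest twin, and 14 of 19 twins lay below the lowest intact embryo. The single intact embryo inside the twin range was an equatorial one at 127.6 CPM, and it was not a shallow library, with 1144210 counts.

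The cationic carrier Slc7a1 spanned 46.2, 314 and 633 CPM (lowest, median and highest) in intact embryos and 18.9, 117.9 and 206 CPM in twins. The groups overlapped at their edges, since 25 of 31 intact embryos were above the highest twin, and all 19 twins were below the intact median. Its log2 fold change was -1.52 ± 0.20 (SE).

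Within the light chains of Slc3a2, the direction was not shared. Slc7a5 was at 58.2, 170 and 498 CPM in intact and 38.2, 104 and 182 CPM in twin embryos (lowest, median and highest), a log2 fold change of -0.93 ± 0.17 (SE). Here 18 of 19 twins were under the intact median, yet only 13 of 31 intact embryos rose above the highest twin. Slc7a6 was at 104, 277 and 449 CPM in intact embryos and 267, 317 and 409 CPM in twins. The twins thus lay within the intact range, with a log2 fold change of 0.17 ± 0.11 (SE). Slc7a7 was at 0, 40.5 and 84.2 CPM in intact and 20.1, 35.5 and 68.1 CPM in twin embryos. Its log2 fold change was -0.15 ± 0.28 (SE), but moved with the treatment of depth as given further on. The groups overlapped almost fully, and the 4 intact embryos with no count were among those of 249597 to 519164 total counts.

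The heavy chain Slc3a2 ran from 192 through 306 to 460 CPM in intact embryos and from 155 through 237 to 349 CPM in twins, a log2 fold change of -0.53 ± 0.10 (SE). Of the twins, 17 of 19 were below the intact median, but only 11 of 31 intact embryos exceeded the highest twin.

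The neutral exchangers Slc1a4 and Slc1a5 were the most scattered. Slc1a4 was at 0, 60.1 and 318 CPM in intact and 13.5, 40.3 and 101.8 CPM in twin embryos, with a log2 fold change of -0.78 ± 0.32 (SE). Slc1a5 was at 4.10, 77.05 and 238 CPM in intact and 16.2, 46.8 and 122.4 CPM in twin embryos, with a log2 fold change of -0.73 ± 0.28 (SE). For both genes twins sat inside the intact range, and a number of intact embryos fell below the lowest twin (3 for Slc1a4 and 4 for Slc1a5). The highest intact Slc1a4 value came from an equatorial embryo with 317266 counts.

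Slc7a9, a light chain best known from kidney and intestine, was near absent. It had 0 counts in all 31 intact embryos, which allows up to 0.136 CPM over the group (3 counts of 22125255), and 33 counts in 9 of 38 twin libraries, or 0.756 CPM. The pooled twin level was 5.58-fold that limit, with the counting error of the 33 counts left out. Counts were present in 6 of 19 twin embryos, and 24 of the 33 came from 3 equatorial ones. The limit covers counting error only, not the spread between embryos. With 10 counts as the most in one library, the level stayed close to the limit of detection.

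**Figure D1:**
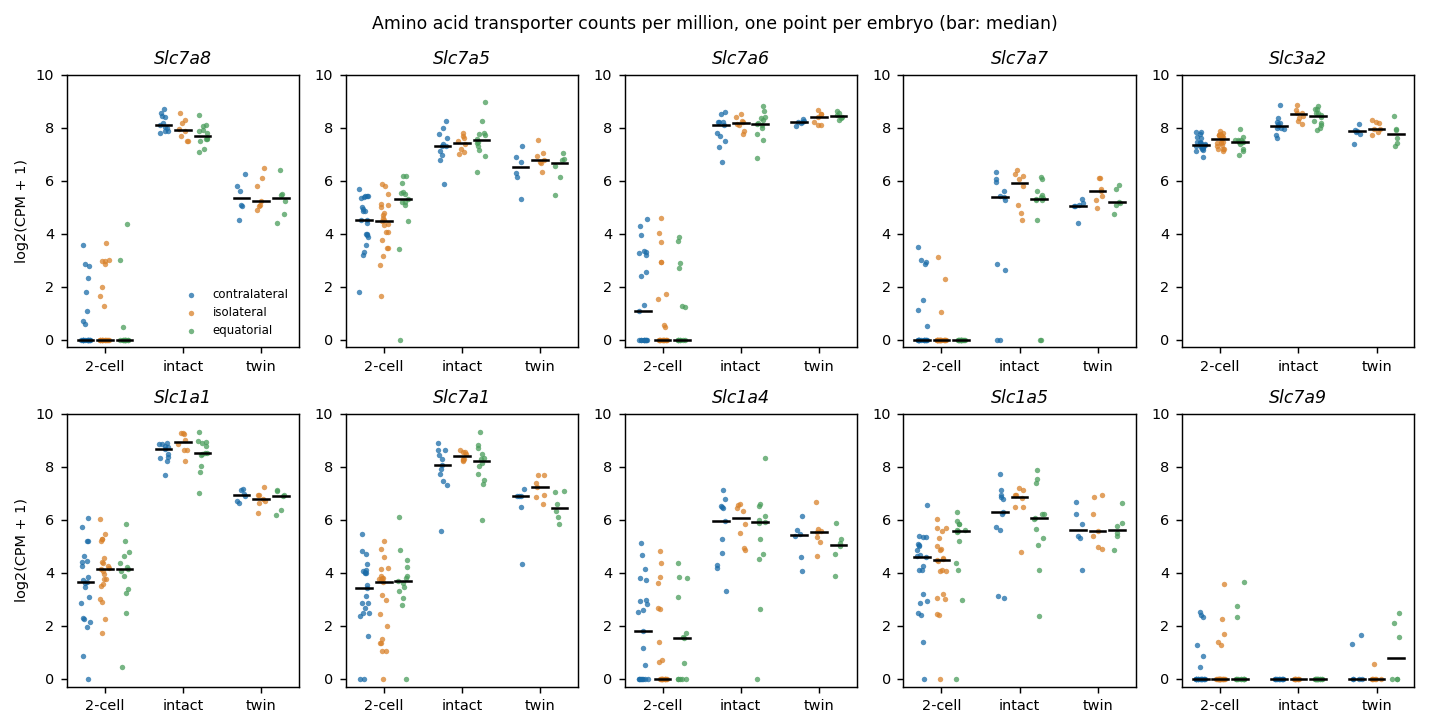
Level of the 10 transporter genes on the log2(CPM + 1) scale, one point per embryo, by stage and ICSI site (contralateral, isolateral and equatorial from left to right), with bars at the group medians. Every twin point of Slc7a8 lies below every intact point, Slc7a6 twins lie within the intact range, and Slc7a9 is at 0 in all 31 intact embryos.

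In edgeR's quasi-likelihood test, 7 of the 9 members tested were past an adjusted p of 0.05, all 7 lower in twins, in a comparison where 40.7% of all genes were called and 20.6% were called as lower in twins. Without the filter on low counts 6 of 10 members were called, 5 lower and 1 higher (Slc7a9), against 5610 of 23034 genes. Because the members were chosen from this contrast, nothing is read from these counts. The median log2 fold change of the 9 was -0.78, that of all genes 0.00. Slc1a4 and Slc1a5 were close to the threshold, as calls were lost in 22 and 7 of the 50 fits that each left out one embryo.

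Depth moved with the groups, so the fold changes were refitted with it in several ways. With log2 total counts as a covariate, 3 members were called (Slc7a8, Slc1a1 and Slc3a2) against 13.3% of all genes, and with total counts and detected genes together 2 were (Slc7a8 and Slc1a1) against 9.55%. In that last fit Slc7a8 was at -2.34 ± 0.30 and Slc1a1 at -1.89 ± 0.23 (log2 fold change ± SE). Slc3a2 was at -0.55 ± 0.20, close to its value without a depth term, although its adjusted p was 0.063 (edgeR). Slc7a1 shrank to -0.62 ± 0.39, Slc7a5 to -0.09 ± 0.33 and Slc1a5 to -0.18 ± 0.61, and Slc1a4 changed sign to 0.34 ± 0.80. Slc7a7 moved the other way, to -0.83 ± 0.54, and to -1.04 ± 0.56 with total counts alone. Since twin and intact totals did not overlap, these fits rest on extrapolating the covariate from one group to the other.

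A pair of further refits did without a covariate. When all embryos with enough counts were thinned to 400000 (19 twin and 26 intact embryos), Slc7a8 was at -2.37 ± 0.16 and Slc1a1 at -1.81 ± 0.13. Slc7a1 was at -1.44 ± 0.20, Slc7a5 at -0.88 ± 0.15, Slc1a5 at -0.90 ± 0.30 and Slc3a2 at -0.55 ± 0.10. These 6 members were called in the thinned counts, where 4086 of 8943 genes were called. Slc1a4 was at -0.62 ± 0.28 and was not called. When only the first twin of each pair and intact embryos of a shared range of totals were kept (13 and 9, medians 982000 and 974919), Slc7a8 was at -2.88 ± 0.27, Slc1a1 at -1.99 ± 0.22, Slc7a1 at -1.41 ± 0.37 and Slc3a2 at -0.72 ± 0.17 (log2 fold change ± SE). These 4 members were called there, against 13.6% of all genes. Slc7a7 was at -0.67 ± 0.32 and was not called. This last subset held no isolateral intact embryo and was chosen after seeing the data.

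**Figure D2:**
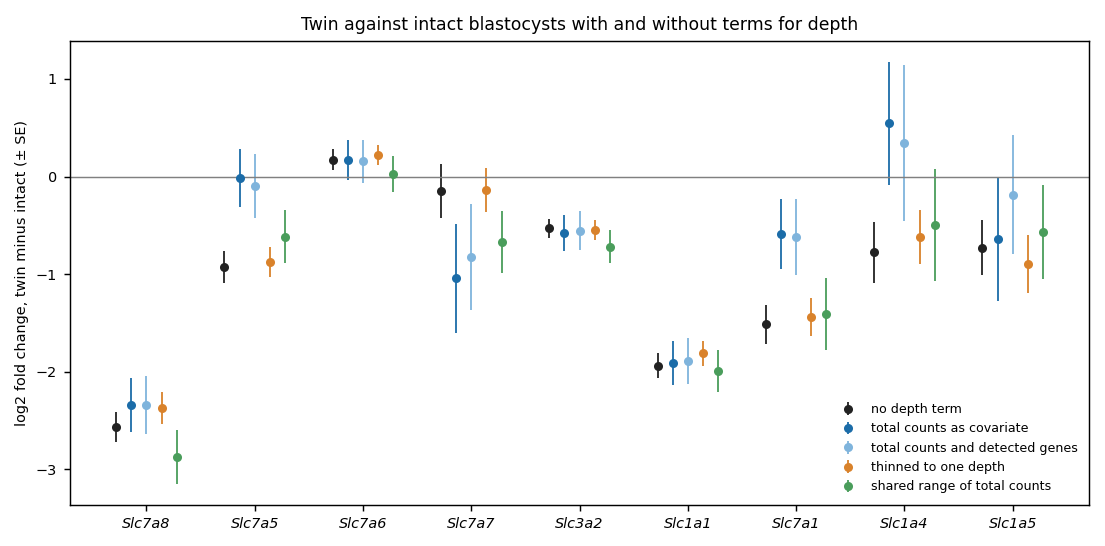
Log2 fold change (twin minus intact, ± SE) of 9 transporters under 5 treatments of depth. Slc7a8 ranges from -2.88 to -2.34 and Slc1a1 from -1.99 to -1.81, Slc1a4 moves from -0.78 to 0.54, and Slc7a1 is at -1.52 without and -0.62 with both covariates.

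The make-up of the light chains among the members (Slc7a5, Slc7a6, Slc7a7 and Slc7a8) is described next, per length. In TPM, Slc7a8 made up 29.6% ± 7.56 (SD, n = 31) of the summed light chain level in intact embryos and 7.40% ± 2.78 (SD, n = 19) in twins, with all 19 twins below the lowest intact embryo. Slc7a6 made up 34.7% ± 9.25 (SD, n = 31) and 59.9% ± 6.83 (SD, n = 19), with 17 of 19 twins above the highest intact embryo. The shares of an embryo add up to the whole, so a lower share of Slc7a8, picked for its fall, raises the others by itself. The level of Slc7a6 overlapped, at 173 ± 51.9 TPM in intact and 203 ± 26.8 TPM in twin embryos (SD). The shares of Slc7a5 (28.6% ± 9.31 and 22.6% ± 6.55, SD) and Slc7a7 (7.12% ± 4.38 and 10.1% ± 2.72, SD) overlapped. The ratio of the light chain sum to Slc3a2 was 1.97 ± 0.54 (SD, n = 31) in intact and 1.81 ± 0.28 (SD, n = 19) in twin embryos, which overlapped as well.

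**Figure D3:**
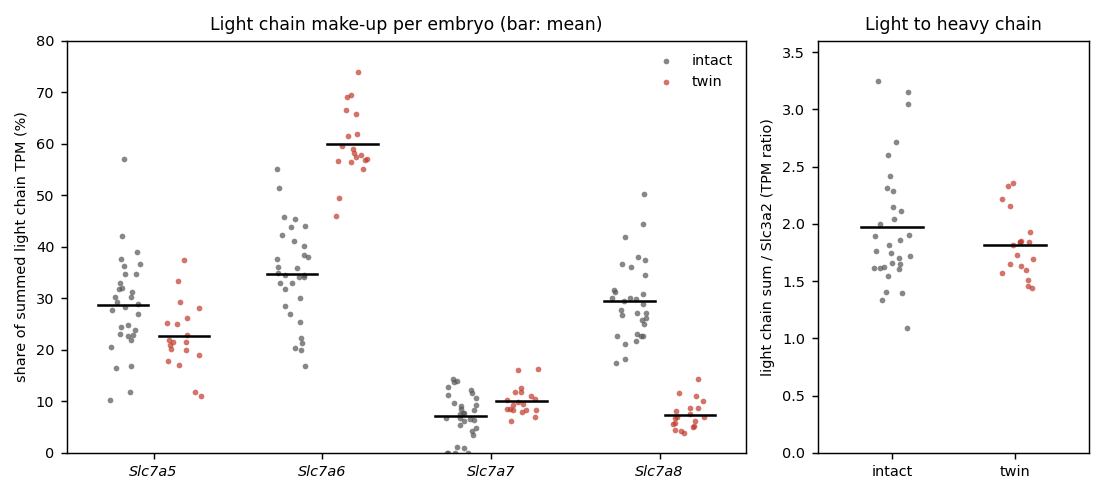
Left, share (%) of each light chain in the summed TPM of Slc7a5, Slc7a6, Slc7a7 and Slc7a8, one point per embryo, with bars at the mean. Right, ratio of that sum to Slc3a2 (TPM). Slc7a8 shares run from 17.5 to 50.2% in intact and from 3.83 to 14.3% in twin embryos, while the light to heavy chain ratios overlap.

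The order of levels, compared per length, also differed. In intact embryos Slc3a2 led at 263 ± 56.2 TPM (mean ± SD, n = 31), followed by Slc7a6 at 173 ± 51.9. Slc7a8 (147 ± 43.6), Slc7a5 (144 ± 62.6) and Slc1a1 (143 ± 43.96) came next and did not differ beyond their spread. In twins Slc7a6 (203 ± 26.8, n = 19) and Slc3a2 (193 ± 40.1) shared the lead, and Slc7a5 followed at 78.7 ± 27.6. Slc1a5, Slc1a1, Slc7a7, Slc1a4, Slc7a1 and Slc7a8 then lay between 39.9 and 25.9 TPM in the mean, each within its own and its neighbour's SD, so that Slc7a8 ranked 3 in intact and 9 in twin embryos.

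Twin partners also differed from each other. For every member but Slc3a2 and Slc7a9 the SD within pairs was larger than that between pair means. A mean of 2 twins varies less than a single twin even when partners are no more alike than strangers. The order of the 2 SDs therefore does not tell whether partners were alike. The within-pair SD on the log2(CPM + 1) scale was 0.84 for Slc7a8 over 19 pairs, against an SD of 0.60 between pair means. For Slc1a1 these were 0.44 and 0.31, for Slc7a1 0.82 and 0.81, and for Slc1a5 0.76 and 0.75. Slc7a6 and Slc3a2 were the most even between partners, with within-pair SDs of 0.27 and 0.29. Twins a and twins b fitted apart gave Slc7a8 fold changes of -2.73 ± 0.17 and -2.49 ± 0.19 against intact embryos, and Slc1a1 fold changes of -2.02 ± 0.14 and -1.87 ± 0.13 (log2 ± SE).

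The embryos also differed in lineage markers. Calls are from the fit without a depth term. In it 20.1% of all genes were called as higher in twins and 20.6% as lower. The epiblast calls of Sox2, Nanog and Klf2 were near the threshold (adjusted p 0.045, 0.023 and 0.023, edgeR). Epiblast genes were higher in twins for 7 of 8 listed, with summed levels of 578 to 1309 TPM in twins and 42.3 to 762 in intact embryos, the defining Pou5f1 at a log2 fold change of 1.72 ± 0.16 and Nanog at 0.73 ± 0.27 (SE). Trophectoderm genes were split, as 2 of 9 were higher (Cdx2 and Tead4) and 5 lower (Eomes, Elf5, Tfap2c, Gata3 and Id2), with sums of 5384 to 6593 TPM in twins and 4905 to 9906 in intact embryos. Of 10 primitive endoderm genes, 3 were higher and 4 lower, with sums of 386 to 559 and 226 to 665 TPM. No gene of these 3 lists was at 0 throughout either group. Cumulus and fibroblast genes reached sums of at most 0.458 and 1.01 TPM in twins, and 17.6 and 4.34 in intact embryos. The part of lineage make-up in the transporter values was not tested.

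Across the 31 intact embryos, Slc7a8 had a Spearman rho of 0.32 with the trophectoderm sum and -0.25 with the epiblast sum, and Slc1a1 had -0.10 and -0.18. Slc7a5 followed the primitive endoderm sum at 0.52, and Slc3a2 and Slc7a7 were at -0.50 and -0.45 with the trophectoderm sum. With total counts, rho was -0.26 for Slc7a8 and 0.16 for Slc1a1. In the 19 twin embryos Slc7a8 was at -0.03 with the trophectoderm sum, -0.18 with the epiblast sum and 0.55 with the primitive endoderm sum. All these embryos share plate and protocol and their values share one depth per embryo, so these are descriptions. Among members, rho ranged from -0.35 to 0.53 over 36 pairs of genes in intact embryos (median -0.01) and from -0.12 to 0.77 in the 19 twin embryos (median 0.31). The highest pair in twins was Slc3a2 with Slc7a5, heavy and light chain of LAT1, and this pair was at -0.04 in intact embryos. In twins Slc3a2 was also at 0.68 with Slc7a1, which has no partner, and at 0.20 with each of its light chains Slc7a6 and Slc7a7.

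The genes most like Slc7a8 over the 31 intact embryos, among 10689 ranked by Spearman rho, were Garem1 (0.72), Nprl2 (0.70), Auts2 (0.69), Setd1b (0.69) and Hcls1 (0.67). Those most like Slc1a1 were Aldh3b2 (0.73), Tmbim1 (0.71), E2f8 (0.69), Slco2a1 (0.68) and Krt19 (0.68), the last a keratin of simple epithelia. With total counts, rho was 0.57 for E2f8 and from -0.30 (Setd1b) to 0.23 (Aldh3b2) for the others. The part of depth in these likenesses was not tested. Against intact embryos, Krt19 stood at -2.98 ± 0.26 in twins and Hcls1 at -2.40 ± 0.44, while Tmbim1 was at -0.08 ± 0.14 (log2 fold change ± SE). Likeness among intact embryos therefore did not always go with the difference to twins.

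Whether the site of ICSI left a trace in these genes was tested separately in each stage, a question independent of how they were chosen. In twin blastocysts none of the 9 members tested was called by edgeR over the 3 sites, none had an unadjusted p under 0.05, and 0% of 10689 genes were called, with 41 at an unadjusted p under 0.05. A share near 0.05 would be usual by chance. The shared fit was therefore strict for twins, and its lack of calls carries little weight. Fitted on twins alone, Slc7a7 had an unadjusted p of 0.048 and an adjusted p of 0.81, among 669 of 10995 genes at an unadjusted p under 0.05, and no gene was called. DESeq2 called no member and no gene. The Slc7a8 values of contralateral, isolateral and equatorial twins were 43.96 ± 18.99, 48.8 ± 22.7 and 42.1 ± 22.3 CPM (SD, n = 6, 7 and 6). Those of Slc1a1 had medians of 121.5, 108.2 and 118.4 CPM and ran from 98.9 to 142, 75.6 to 150 and 70.9 to 139 CPM. The groups overlapped for both genes. Among the 9 members tested, the widest site difference was in Slc7a1, isolateral minus equatorial, at 0.67 ± 0.36 (log2 fold change ± SE). Without the filter on low counts, Slc7a9 had an unadjusted p of 0.041 and an adjusted p of 0.50 over the 3 sites (edgeR), from 33 counts.

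In intact blastocysts no member was called over the 3 sites either, none had an unadjusted p under 0.05 in that test, and 0.0842% of all genes were called (9 of 10689). Of all genes, 1394 had an unadjusted p under 0.05 (edgeR). That is above the share near 0.05 usual by chance, and the share was lower with intact embryos fitted alone. The shared fit was therefore the more lenient for intact embryos, and its calls and SEs are to be read with caution. DESeq2 called no member and 189 genes. Slc7a8 averaged 293 ± 65.5 CPM in contralateral (SD, n = 11), 252 ± 68.1 in isolateral (n = 8) and 218 ± 60.2 in equatorial embryos (n = 12). The sites overlapped, and contralateral minus equatorial was 0.47 ± 0.20 (log2 fold change ± SE). For that pair of sites the unadjusted p was 0.022 and the adjusted p 0.29, and over the 3 sites the adjusted p was 0.43 (edgeR). Fitted on intact embryos alone, its unadjusted p fell below 0.05, among 513 of 9165 genes. Its adjusted p there was 0.86, and no gene was called (edgeR). Slc1a1 averaged 380 ± 85.6, 491 ± 120.6 and 382 ± 137 CPM (SD), and its adjusted p was 0.57.

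The difference between twin and intact embryos did not itself differ detectably between sites. For this interaction 0 of 9 members and 0% of all genes were called, with 246 of 10689 genes at an unadjusted p under 0.05 and no member among them, and DESeq2 called none. These 246 are again fewer than a share of 0.05, so the lack of calls carries little weight. The log2 fold change of Slc7a8 was -2.83 ± 0.28, -2.41 ± 0.26 and -2.45 ± 0.27 (SE) at the contralateral, isolateral and equatorial site. That of Slc1a1 was -1.74 ± 0.22, -2.20 ± 0.22 and -1.88 ± 0.22. The widest interaction term among members, that of Slc1a4 (isolateral minus equatorial), was 0.75 ± 0.76 (SE). For Slc1a4 a difference of that size could therefore not be resolved with 6 to 12 embryos a group. The SE of the same term was smaller for Slc1a1 (0.29) and Slc7a8 (0.35).

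In 2-cell embryos 9.82% of 13141 genes were called between sites, and 2905 had an unadjusted p under 0.05 (edgeR). None of the 7 members tested was called or had an unadjusted p under 0.05 by edgeR. With 7 members, 0 calls is not far from the share over all genes. DESeq2 called no member and 1784 genes. Slc7a5 and Slc1a5 were the members with the smallest adjusted p, 0.47 and 0.46. Slc7a5 averaged 39.1 ± 21.1 CPM in equatorial embryos (SD, n = 13) against 25.0 ± 13.9 in contralateral and 23.2 ± 14.9 in isolateral ones (n = 21 each). Slc1a5 averaged 39.9 ± 22.9, 23.4 ± 20.8 and 24.1 ± 17.7 CPM in the same order. In both genes the equatorial mean was the highest and the ranges of all 3 sites overlapped. Slc7a8, Slc7a7 and Slc7a9 did not pass the filter on low counts, with counts in 24, 13 and 14 of 110 blastomeres. Without the filter Slc7a7 was called between sites, with an adjusted p of 0.0115 (edgeR). It was 1 of 10 members, in a setting where 4974 of 24964 genes were called. Counts of Slc7a7 were present in 7 of 21 contralateral, 3 of 21 isolateral and 0 of 13 equatorial embryos.

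**Figure D4:**
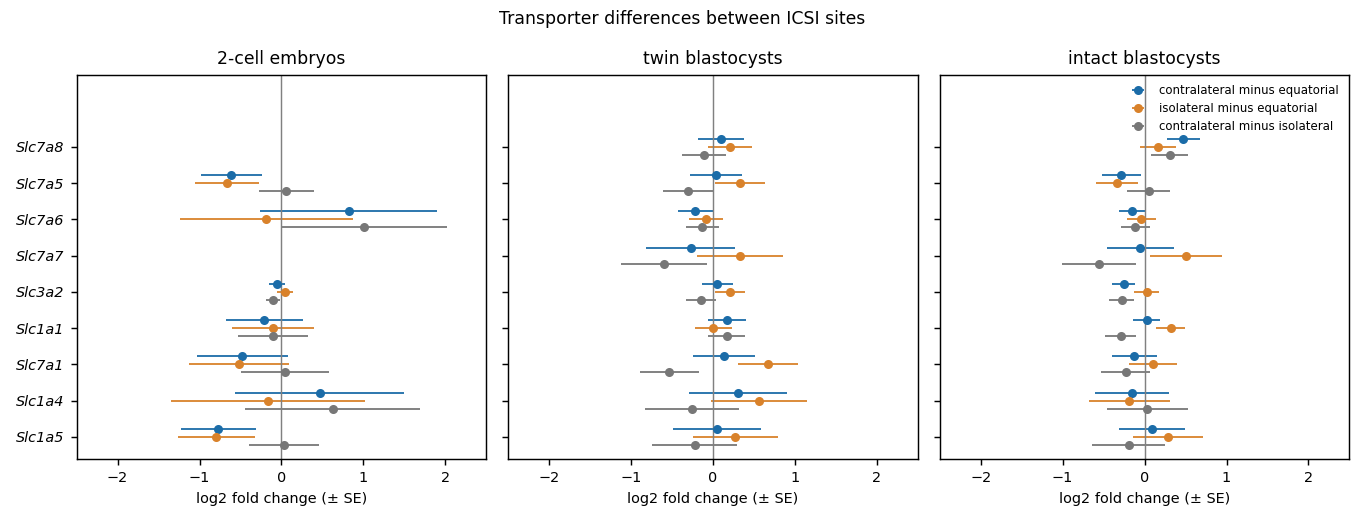
Log2 fold change (± SE) between ICSI sites for 9 transporters in 2-cell embryos, twin blastocysts and intact blastocysts. No member was called in any panel, and Slc7a8 and Slc7a7 did not pass the low-count filter in 2-cell embryos.

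Between the 2-cell stage and the blastocyst most of the set went from sparse to abundant. The comparison used the 13 pairs of 2-cell blastomeres on the plate that also held the blastocysts, against the 31 intact ones. All 9 members tested were called, all higher in the blastocyst, where 75.6% of all genes were called and 37.9% were called as higher. The intact values are those the rule used, so nothing is read from that count. Sparse members such as Slc7a7, with counts in 1 of the 13 pairs, passed the filter only through the blastocysts. Without the filter, Slc7a9 was called as lower in the blastocyst, at -3.23 ± 0.80 (log2 fold change ± SE, edgeR). In that setting 8782 of 24309 genes were called as lower. Slc7a8 had counts in 3 of these 13 embryos, with a highest value of 2.97 CPM, against 135 CPM as the lowest intact value. Its fitted log2 fold change was 8.91 ± 0.42 (SE), and 6.76 ± 0.40 when all 55 of the 2-cell embryos entered, of which 19 held counts.

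Slc7a6 and Slc7a7, also near 0 at the 2-cell stage (medians of 0 CPM), rose by 5.44 ± 0.56 and 6.15 ± 0.84 (log2 fold change ± SE). Slc7a1 rose by 4.84 ± 0.49 from a median of 4.53 CPM, Slc1a1 by 3.97 ± 0.40 from 17.6 CPM, and Slc1a4 by 3.98 ± 0.84 from 0 CPM. Slc7a5 rose by 2.79 ± 0.35 from 15.8 CPM and Slc1a5 by 1.25 ± 0.39 from 28.6 CPM. The heavy chain was the exception in size. Slc3a2 went from 136, 188 and 234 CPM (lowest, median and highest) to 192, 306 and 460 CPM, by 0.50 ± 0.11, so the 2-cell embryo already held the heavy chain transcript at much of its blastocyst level. The sum of Slc7a5, Slc7a6, Slc7a7 and Slc7a8 was 0.184 ± 0.108 of Slc3a2 in TPM (SD) in the 55 embryos at the 2-cell stage. In intact blastocysts it was 1.97 ± 0.54. This sum holds members only and leaves out Slc7a11, whose median went from 11.1 TPM at the 2-cell stage to 1.29 TPM in intact blastocysts. The 2 stages had been mapped in separate runs by the authors.

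The other amino acid transporters were taken from a list of 43 genes that holds no member, of which 16 passed the filter on low counts. In twins 9 of these 16 were lower than in intact embryos and 0 were higher, against 20.6% of all genes called as lower and 20.1% called as higher. Without the filter on low counts 13 of 38 were called, 9 lower and 4 higher, against 5610 of 23034 genes, 2456 lower and 3154 higher. The 4 were Slc3a1, the heavy chain partner of Slc7a9, Slc36a3, Slc38a8 and Slc38a11, named after their values were seen, and each had a median of 0 CPM in intact embryos and of at most 2.17 CPM in twins. The median log2 fold change of the 16 was -0.90, that of all genes 0.00. The lower ones included Slc7a11 (-3.30 ± 0.63), the cystine and glutamate exchanger, Slc43a2 (-2.04 ± 0.33), a carrier of large neutral amino acids, Slc6a14 (-1.91 ± 0.14), a broad carrier of neutral and cationic amino acids, and Slc7a3 (-1.69 ± 0.33), a cationic carrier related to Slc7a1 (log2 fold change ± SE).

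Slc6a14 was the clearest of them. It was at 196, 399 and 672 CPM (lowest, median and highest) in intact and 52.8, 109.2 and 229 CPM in twin embryos, with little overlap. The sodium-coupled neutral carriers Slc38a2 (-2.01 ± 0.22), Slc38a1 (-1.67 ± 0.19) and Slc38a7 (-1.03 ± 0.18) were lower as well, as was the lysosomal Slc36a1 (-1.43 ± 0.41). Slc38a2 was at 51.4, 301 and 624 CPM in intact and 47.1, 66.4 and 156 CPM in twin embryos. By contrast Slc7a11 was hardly present, at a median of 6.30 CPM in intact embryos and 0 in twins.

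With total counts and detected genes as covariates, 3 of the 16 were called, against 9.55% of all genes, 2 of them lower (Slc6a14 at -1.68, Slc43a2 at -3.40). The third, Slc1a3 of the family of Slc1a1, was higher in twins, at 2.93 ± 0.86 against 0.13 ± 0.40 without a depth term (log2 fold change ± SE). With both covariates Slc38a2 was at 0.0138 and Slc7a3 at 0.25, no longer lower in twins. With the shared range of totals 5 were called, all lower, against 13.6% of all genes called. As for the members, a part of the list thus depended on how depth was handled.

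**Figure D5:**
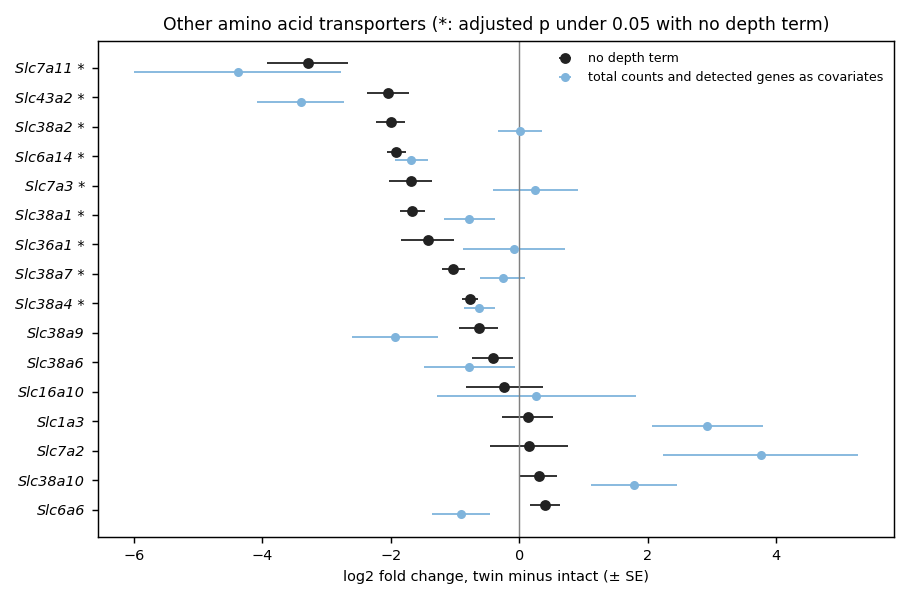
Log2 fold change (twin minus intact, ± SE) of the 16 other amino acid transporters tested, without a depth term (black) and with total counts and detected genes as covariates (blue). Stars mark the 9 genes called without a depth term, all lower in twins. Slc6a14 and Slc43a2 stay lower with the covariates, Slc38a2 and Slc7a3 do not, and Slc1a3 is at 2.93 with them.

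Of 43 genes of amino acid sensing by mTORC1, 40 were tested, and 14 were called, 8 higher and 6 lower in twins, against 40.7% of all genes. The median log2 fold change was 0.17. Those furthest from 0 were Fnip2 (-1.82 ± 0.31), a folliculin partner, Tbc1d7 (1.56 ± 0.30), a subunit of the TSC complex that restrains mTORC1, Sesn1 (1.39 ± 0.38) and Sesn2 (-0.996 ± 0.14), both sestrins, a family of leucine sensors, and Mlst8 (0.89 ± 0.28), a subunit of the kinase complex (log2 fold change ± SE). The third sestrin, Sesn3, was at -0.27 ± 0.37 and was not called. With total counts and detected genes as covariates 4 were called, 3 lower and 1 higher, against 9.55% of all genes. Among the lower were Sesn2 (-1.29) and Fnip2 (-1.85). Sesn1 was at 1.36 ± 0.94 there and no longer called. In that fit Mlst8 turned to -0.50 and Tbc1d7 fell to 0.11.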

How the data were processed

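Single blastomeres and whole blastocysts were lysed and amplified with the SMART-Seq Single Cell Kit, made into Nextera XT libraries and sequenced on an Illumina NovaSeq. The authors deposited whole-number counts of exact-deduplicated reads per gene, not normalised, in one table for blastomeres (125 libraries) and one for blastocysts (69), mapped in separate runs to GRCm38 without strand. The submitters' processing notes name Trimmomatic 039, FastQC 0.12.1 and STAR 2.7.10b. Of 219 samples, 25 had no column and were not analysed here.

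Blastomere pairs were kept when both cells held at least 9500 detected genes, which left 55 of 62 pairs (48 with a mitochondrial share of at most 2%, an alternative), and blastocysts with at least 4000. This left 110 blastomere and 69 blastocyst libraries, 234099 to 2161062 counts each. Counts of sister cells or twins were added. Levels are CPM, and TPM from exonic gene length, and single values were compared on log2(CPM + 1). Main tests were edgeR 4.0.16 quasi-likelihood tests (R 4.3.3, TMM factors, filterByExpr, Benjamini-Hochberg over all genes tested). All 6 blastocyst groups shared a model, 2-cell models had a plate term, and the stage model had a site term. Calls had an adjusted p under 0.05. A floor was 3 counts. The fits of twin against intact embryos and of sites in each stage were tested on simulated data, those of the interaction and of stage were not.

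The alternatives were depth covariates, RLE factors, no filter on low counts, DESeq2 1.42.0, one twin only, counts thinned to 400000, rank tests on TPM, fewer samples, each embryo left out, and, added after seeing the data, a shared range of totals. The members and gene lists were chosen with earlier results of these data known. Named were all members, up to 8 other transporters and 5 mTORC1 genes called with the largest changes, and the 5 genes ranked most like Slc7a8 and Slc1a1. Embryos came from separate oocytes, but the labels do not tie them to females or ICSI days. Promoters are RefSeq.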

Additional observations from a re-analysis of the deposited data

Results flagged for a closer look

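A single embryo stood apart from the rest of its group by Dixon's test in 4 of 40 combinations of member and group. Chance alone gives about 1 in 20 for independent, normally distributed values. Values near 0 and members measured in the same embryo do not meet this, so the 4 are not set against that rate. Among contralateral twins, the same embryo was lowest for 2 members, with Slc7a1 at 18.9 CPM against 89.5 to 142 in the other 5 embryos, and Slc7a7 at 20.1 CPM against 31.7 to 38.02. Among isolateral intact blastocysts, 1 embryo was lowest for Slc1a5, at 26.4 CPM (14 counts) against 87.8 to 146. Among isolateral twins, 1 embryo held the only Slc7a9 count, at 0.490 CPM, and the other embryos of its group had 0. The 40 combinations do not cover every group, so the 4 are not all the values that stand apart. An equatorial intact embryo with 317266 counts had Slc1a4 at 318 CPM, against at most 96.2 in the rest of its group. Its Slc7a5 was at 498 CPM, against at most 305.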

How the results depend on the processing

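Twin and intact embryos differed in total counts without overlap, and the treatment of depth moved the counts of genes called, from 7 members to 3 with total counts as a covariate, 2 with total counts and detected genes, and 4 in the shared range of totals. The other transporters went from 9 to 5, 3 and 5, and the mTORC1 genes from 14 to 5, 4 and 2. All genes called went from 4353 to 1426, 1021 and 1482. The shared range also holds fewer embryos. With total counts alone as covariate, log2 fold changes turned to 0.54 for Slc1a4, 0.0504 for Slc7a3, -0.0343 for Tbc1d7 and -0.38 for Mlst8. With detected genes added they were 0.34 for Slc1a4, 0.0138 for Slc38a2, 0.25 for Slc7a3 and -0.50 for Mlst8. The cause was not tested.

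Without the filter on low counts, 1 member was called between ICSI sites in 2-cell embryos instead of 0, namely Slc7a7, with an adjusted p of 0.0115 (edgeR), and it had counts in 13 of 110 blastomeres. Of all genes, 4974 of 24964 were called there. In the same setting 4 of the other transporters were called as higher in twins, instead of 0, beside 3154 of 23034 genes. So was the member Slc7a9, at 2.62 ± 0.73 (log2 fold change ± SE), with an adjusted p of 0.0091 (edgeR) and a level near the limit of detection. All other settings tried kept each count of members or list genes called within 1.5 times its main value. The sites in twin and intact blastocysts and their interaction stayed at 0 members throughout. Calls over all genes moved more. Between sites in intact blastocysts they went from 9 to 189 with DESeq2, 558 without the filter and 0 with intact embryos fitted alone. In 2-cell embryos they went from 1291 to 604 with total counts and detected genes as covariates. Leaving out each embryo in turn gave 5 to 7 members called in twin against intact blastocysts and 0 in the other blastocyst comparisons. The log2 fold change of Slc7a8 then ranged from -2.66 to -2.51, that of Slc1a1 from -1.99 to -1.90, that of Slc1a4 from -0.87 to -0.57 and that of Slc1a5 from -0.81 to -0.64. Without isolateral intact embryos in the shared range, no fit by site was run there. No paired analysis was possible because embryo numbers are not shared between groups. Genes near 0 at the 2-cell stage carry few counts, which limits the site differences that could be detected there.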
